A study of Mus musculus with 12 samples.

Results

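The actin isoform family comprises the 6 conventional actin genes of the mouse: Acta1, Actc1, Acta2, Actg2, Actb and Actg1. They were taken by symbol, with every probe that an annotated RefSeq accession assigns to them, and make up 6 of 19096 named genes and 10 of 41174 probes on the array, in 28 spots. Acta2 had 4 probes, Actg1 had 2 and each other gene had 1. The study compared mouse embryonic stem cells (mESC) with cells at Day 9 and at Day 14 of cardiac differentiation, using 4 arrays for each. Per the labels, all cells are embryonic stem cells seeded on a coating of crosslinked elastin-like polypeptide, an engineered protein with repeats taken from elastin. They were kept for 2 days in medium without LIF, the factor that maintains mouse stem cells undifferentiated, and then for 12 days in GMEM with 2.5% serum replacement. The same culture text stands beside every sample, mESC included, and no cell line, genotype or day for the mESC samples is given in the sources used here. The labels name no sorting step, so each array is taken to read a whole culture. Whether replicates came from separate cultures is not stated, so the p-values cover only sample-to-sample spread, some or all of which may be technical.

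Each array was a one-colour Agilent array, which reads the brightness of Cy3-labelled RNA on each probe. An array's 75th percentile of signal lay between 345.9 and 507.7, lowest in mESC and highest at Day 14. Between 59.5% and 67.9% of probes on an array were well above background. Signals below are given as scaled signal, the processed signal divided by the array's own 75th percentile. The number of arrays limits the precision. Each slide and each scan held arrays of 1 group, so effects of slide, scan and group cannot be told apart. The cultures were checked against markers of the labelled cells and of other cells. All 6 pluripotency markers fell at Day 9 and at Day 14 relative to mESC, and all 14 cardiomyocyte markers rose at Day 9 and at Day 14. Markers of fibroblasts, smooth muscle and hepatic or visceral endoderm rose in the same arrays (8 of 10, 8 of 9 and 6 of 6 at Day 9, and 9 of 10, 8 of 9 and 6 of 6 at Day 14). By the same rule, given below, 20.0% of all genes rose and 21.0% fell at Day 9. At Day 14 22.8% rose and 24.1% fell. Levels of different probes are not compared with each other here, since probes differ in brightness for reasons other than the amount of RNA.

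Actins polymerise into the filaments that carry contraction, cell shape and movement. Cells use 4 muscle isoforms, of which Actc1 (cardiac alpha-actin) and Acta1 (skeletal alpha-actin) build sarcomeres and are both used in the embryonic heart, while Acta2 (smooth muscle alpha-actin) and Actg2 (enteric smooth muscle gamma-actin) mark smooth muscle, myofibroblasts and early heart muscle. Actb and Actg1 are the cytoplasmic beta-actin and gamma-actin of every cell. Serum response factor (SRF), together with myocardin or the MRTF proteins, drives many actin genes by binding the CArG box, a motif of CC, then 6 A or T bases, then GG. MRTF proteins are held back by free actin monomers, which ties these genes to the state of the filaments.

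The promoters are shown because all muscle isoforms were higher at both days than in mESC, by amounts that differed widely. RefSeq windows of build GRCm38.p6 were held for 4 of the 6 genes, and Actb and Actg2 are named only. The window of Acta2 lies before a start inside the annotated gene, so most of it is within the gene's own span, and it is not printed. Each line gives the 250 bases before the annotated start, 5′ to 3′: Acta1 at chr8:123894776-123895025, Actc1 at chr2:114052876-114053125 and Actg1 at chr11:120348496-120348745, all on the minus strand. Capitals mark CArG boxes and boxes with 1 C or G among the 6 central bases.
Acta1: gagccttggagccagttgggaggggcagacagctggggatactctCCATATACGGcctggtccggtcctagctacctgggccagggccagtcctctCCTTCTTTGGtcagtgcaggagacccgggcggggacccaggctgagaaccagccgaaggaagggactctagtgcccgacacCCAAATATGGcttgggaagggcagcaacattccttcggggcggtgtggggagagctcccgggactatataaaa
Actc1: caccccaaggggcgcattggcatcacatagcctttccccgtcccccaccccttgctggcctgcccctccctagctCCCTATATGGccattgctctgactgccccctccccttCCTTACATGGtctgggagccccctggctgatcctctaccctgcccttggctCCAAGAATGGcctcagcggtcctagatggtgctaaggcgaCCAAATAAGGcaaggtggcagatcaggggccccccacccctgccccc
Actg1: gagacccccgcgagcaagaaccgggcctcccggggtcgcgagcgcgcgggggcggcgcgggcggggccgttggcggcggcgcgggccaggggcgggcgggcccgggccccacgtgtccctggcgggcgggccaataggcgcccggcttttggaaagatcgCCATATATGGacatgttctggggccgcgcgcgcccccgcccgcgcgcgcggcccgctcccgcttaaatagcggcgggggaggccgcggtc

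A full CArG box stood in 3 of these 4 windows. It was CCAAATATGG with its first base at -73 from the start of Acta1, CCAAATAAGG at -47 in Actc1 and CCATATATGG at -90 in Actg1. The window of Acta2, counted from its internal start, held no full box but had CCCTATATGG at -84 and CCTTGTTTGG at -34, each with 1 C or G in the centre. Acta1 had 2 such boxes and Actc1 had 3, and Actg1 had none. Across all 32851 promoter windows of the same length, read on both strands, 1.47% held a full box and 7.24% held a box with 1 central C or G. The motif CATTCC, which TEAD factors bind, was found in Acta1 and, on the other strand, in Acta2, against 12.6% of all windows. TATAAA was found in Acta1 alone of the 4, against 12.4% of windows. GGGCGG, an Sp1 motif, occurred in Acta1 and Actg1, against 32.7% of windows, with overlapping matches in Actg1. A match is a description of these letters and not a bound site.

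Both sarcomeric actins were far brighter in differentiated cells than in mESC. Actc1 had scaled signals of 0.116, 0.111, 0.119 and 0.112 on the mESC arrays. At Day 9 they were 28.8, 55.3, 49.9 and 35.8, and at Day 14 they were 17.5, 21.7, 18.8 and 24.2. The groups did not overlap, and every Day 14 array lay below every Day 9 array. Actc1 rose by 8.49 ± 0.18 on the log2 scale at Day 9 relative to mESC (SE, n = 4 per group; limma adjusted p = 3.16e-12) and by 7.48 ± 0.18 at Day 14 (limma adjusted p = 6.99e-12). The words rose and fell are kept for an adjusted p under 0.05 together with a log2 change of at least 1 in size. With normexp background correction, which adds an offset of 50 to every signal, the changes were 7.28 and 6.12. The change at Day 9 was larger in size than that of 99.8% of the 20875 genes tested. In bulk RNA, more cells of a type and more RNA per cell cannot be told apart.

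Acta1 was not well above background on any mESC array, where its scaled signals were 0.00687, 0.0133, 0.0125 and 0.00932. It had 2.84, 3.43, 2.99 and 2.69 at Day 9, and 1.38, 1.47, 1.30 and 1.36 at Day 14, above background on all 8 arrays. Its 3 groups did not overlap either. Set against the lowest detectable signal of each mESC array, taken from probes well above background, Acta1 was at least 122-fold higher at Day 9 (limma adjusted p = 3.27e-12) and at least 56.5-fold higher at Day 14 (limma adjusted p = 8.47e-12). With normexp the log2 change of Acta1 was 4.25 at Day 9 and 3.15 at Day 14, below both bounds, so the size of its rise depends on how background is treated. Such bounds stand wherever a probe was undetected throughout a group. Of 13 tested skeletal muscle markers 5 rose and 5 fell at Day 9, and 6 rose and 2 fell at Day 14, relative to mESC. Among all genes 20.0% rose and 21.0% fell at Day 9, and 22.8% rose and 24.1% fell at Day 14. Between Day 14 and Day 9, where Acta1 was lower, 6 of these markers rose and none fell, beside 10.2% and 3.61% of all genes. Myf5, a marker of skeletal muscle precursors, was not above background on any of the 12 arrays. Pax7, another, was not above background on any Day 9 or Day 14 array, and Myog, a skeletal muscle regulator, on any Day 9 array. The summed scaled signal of the 13 tested skeletal muscle markers was 11.1 to 23.7 at Day 9 and 18.3 to 23.0 at Day 14, against 1.77 to 1.86 in mESC.

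**Figure D1:**
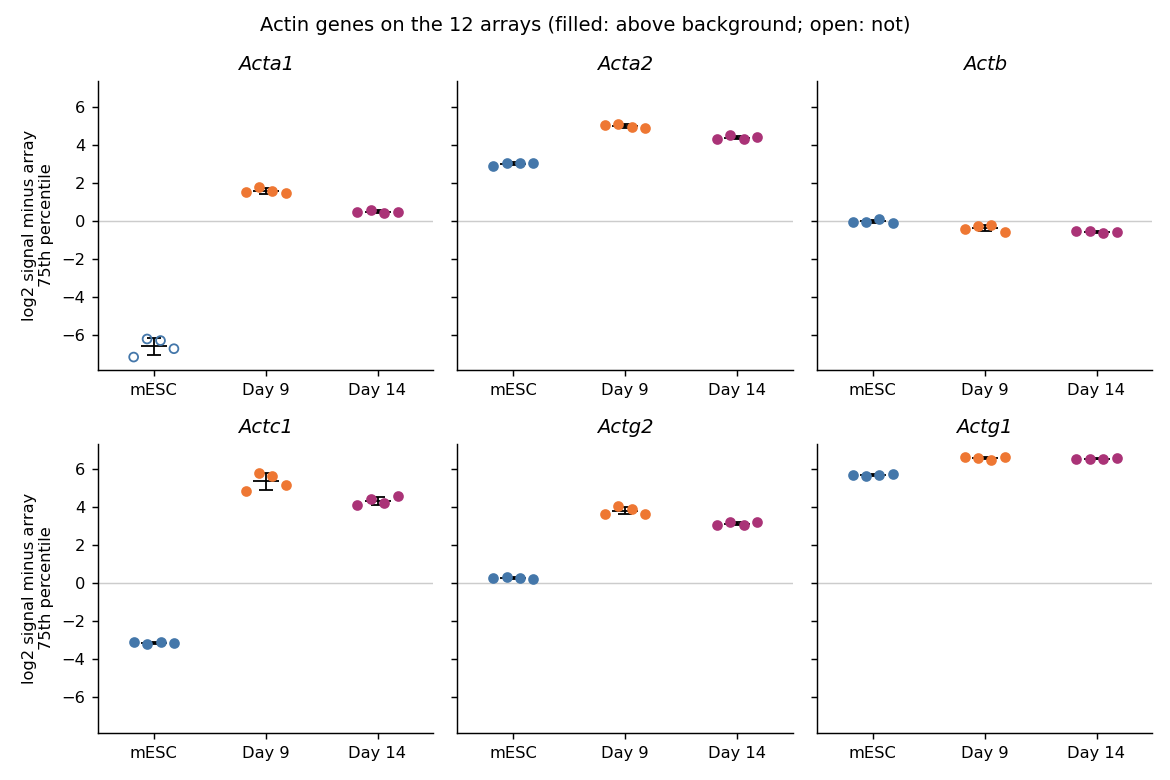
Scaled signal of the probe that stands for each actin gene on the 12 arrays, as log2 signal minus the array's 75th percentile (y axis), for mESC, Day 9 and Day 14 (x axis); points are arrays, bars the mean ± SD of 4 arrays, and open points are not well above background. Acta1 and Actc1 sit far above their mESC arrays at both days and lower at Day 14 than at Day 9, Actb lies slightly lower at both days, and the 3 groups of Actg1 span 5.66 to 6.64.

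Between the days both sarcomeric actins fell. Acta1 was lower by 2.16-fold at Day 14 relative to Day 9 (log2 change -1.11 ± 0.18, limma adjusted p = 0.000233) and Actc1 by 2.02-fold (log2 change -1.01 ± 0.18, limma adjusted p = 0.000573). The Actc1 value lies at the threshold of size. It was -0.87 without Day 9 replicate 2, -0.92 without Day 9 replicate 3, -0.94 without Day 14 replicate 1 and -0.97 without Day 14 replicate 3, each short of the threshold, and with arrays scaled on Actb it was -0.81, where Acta1 was -0.91. Of the 14 cardiomyocyte markers, 2 fell and none rose at Day 14 relative to Day 9, with a median log2 change of -0.45. Among all genes 3.61% fell and 10.2% rose between the days. Other sarcomere genes differed among themselves between the days. Tmod1 and Nebl also fell, as given below, and the Nebl call was lost with normexp. Smaller differences were seen in Myh6 (alpha myosin heavy chain) at -0.01 ± 0.31, Tnnt2 (cardiac troponin T) at -0.57 ± 0.21 and Myh7 (beta myosin heavy chain) at -0.58 ± 0.21, none of which passed both thresholds.

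The smooth muscle actin Actg2 rose at both days. Its scaled signals were 1.20, 1.24, 1.20 and 1.15 in mESC, 12.7, 16.7, 15.1 and 12.5 at Day 9, and 8.48, 9.41, 8.23 and 9.24 at Day 14. No array of a group crossed into another group. The log2 change was 3.56 ± 0.09 at Day 9 relative to mESC (11.8-fold, limma adjusted p = 1.15e-11) and 2.88 ± 0.09 at Day 14 (7.37-fold, limma adjusted p = 5.08e-11). The difference between Day 14 and Day 9 was -0.68 ± 0.09 (limma adjusted p = 5.73e-05), short of the threshold of size.

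Acta2 rose on every one of its probes, by amounts that differed widely. The probe with the highest mean, A_51_P450957, stands for the gene. It had scaled signals of 7.39, 8.29, 8.12 and 8.19 in mESC, 32.4, 34.3, 30.6 and 29.6 at Day 9, and 19.9, 22.3, 19.5 and 20.8 at Day 14. On this probe Acta2 rose by 1.99 ± 0.06 at Day 9 relative to mESC (3.97-fold, limma adjusted p = 6.77e-11) and by 1.37 ± 0.06 at Day 14 (2.58-fold, limma adjusted p = 1.36e-09).

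Probe A_52_P420504, printed in 10 spots on each array, had scaled signals of 0.0683, 0.0602, 0.0645 and 0.0589 in mESC. At Day 9 it had 132, 130, 127 and 128, and at Day 14 it had 65.3, 68.9, 65.0 and 69.6. Its log2 change was 11.01 ± 0.05 at Day 9 relative to mESC (limma over all 28385 probes, adjusted p = 1.78e-16) and 10.06 ± 0.05 at Day 14 (adjusted p = 3.30e-16, limma). Probe A_52_P210078 was not above background in mESC and was at least 220-fold higher at Day 9 and at least 93.2-fold higher at Day 14. Probe A_52_P239556 was also not above background in mESC and was at least 4.88-fold higher at Day 9 and at least 2.33-fold higher at Day 14. Its processed signals were only 46.1 to 51.0 at Day 9, near the floor that sets the bound.

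**Figure D2:**
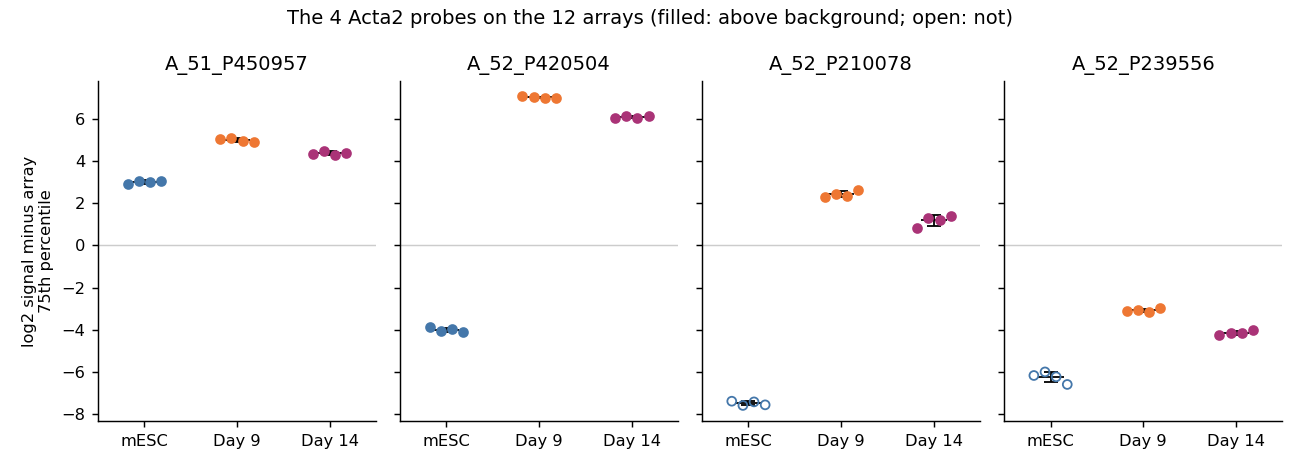
The 4 Acta2 probes on the 12 arrays, as log2 signal minus the array's 75th percentile (y axis), for mESC, Day 9 and Day 14 (x axis); points are arrays, bars the mean ± SD of 4 arrays, and open points are not well above background. Every probe is highest at Day 9, and A_51_P450957 alone of the 4 is above 0 in mESC, at 2.89 to 3.05.

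The gap between the largest and the smallest log2 change among the Acta2 probes was 9.02 at Day 9 relative to mESC. Among 5621 genes with several tested probes the median gap was 0.40, and 99.9% had a smaller one. The 2 probes of Actg1 differed by 0.11. The 4 Acta2 probes carry the same accession, and the files used here hold no probe sequences, so which stretch of the transcript each reads is not given. All 4 probes were lower at Day 14 than at Day 9, with log2 changes of -0.62 ± 0.06, -0.95 ± 0.05, -1.24 ± 0.12 and -1.07 ± 0.11 in the order named, and the last 2 fell by the rule. The size of the Acta2 change against mESC therefore depends on the probe, and its direction did not in these 4.

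Markers of cells that use smooth muscle actins were up in the same arrays. Smooth muscle markers rose in 8 of 9 cases at Day 9 and at Day 14 relative to mESC, among them Tagln (transgelin), Cnn1 (calponin) and Des (desmin). Their summed scaled signal was 95.7 to 112 at Day 9 and 84.7 to 93.4 at Day 14, against 2.88 to 3.14 in mESC. Of these markers Myocd and Synpo2 were not above background on any mESC array. For fibroblast and myofibroblast markers the sum was 238.0 to 419 at Day 9 and 537 to 593 at Day 14, against 2.51 to 2.64 in mESC, where Col3a1, Dcn, Lum, Postn, Tcf21 and Fap were not above background. For cardiomyocyte markers it was 241 to 489 at Day 9 and 243 to 330.0 at Day 14, against 7.00 to 7.75 in mESC, where Nppa was not above background. The part of each cell type in the actin signals was not tested.

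Of the cytoplasmic actins, Actb differed little between the groups. Its probe, printed in 10 spots, had scaled signals of 0.958, 0.962, 1.05 and 0.926 in mESC, 0.737, 0.808, 0.849 and 0.667 at Day 9, and 0.678, 0.674, 0.629 and 0.669 at Day 14. The Day 9 and Day 14 arrays overlap, and all 8 lie below the mESC arrays. The log2 difference was -0.35 ± 0.07 at Day 9 (limma adjusted p = 0.000823) and -0.56 ± 0.07 at Day 14 (limma adjusted p = 2.00e-05) relative to mESC, and -0.20 ± 0.07 at Day 14 relative to Day 9 (limma adjusted p = 0.0308). Each passed the threshold on p and missed that on size. The median log2 change of all genes was -0.16, -0.19 and -0.09 in these comparisons.

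Actg1 was higher at both days by just under the threshold of size. Its scaled signals were 51.3, 50.6, 51.9 and 53.6 in mESC, 98.7, 96.1, 91.0 and 99.96 at Day 9, and 92.9, 94.5, 91.4 and 95.1 at Day 14. The 8 differentiated arrays lie above all mESC arrays and overlap each other. The log2 difference was 0.90 ± 0.04 at Day 9 relative to mESC (1.86-fold, limma adjusted p = 1.57e-09) and 0.85 ± 0.04 at Day 14 (1.80-fold, limma adjusted p = 1.98e-09). Between Day 14 and Day 9 it was -0.04 ± 0.04 (limma adjusted p = 0.367). The second probe gave 0.79 ± 0.09 at Day 9 and 0.72 ± 0.09 at Day 14 relative to mESC. With quantile normalization the 2 differences were 1.30 and 1.36, and with arrays scaled on Actb they were 1.25 and 1.41, all past the threshold. Scaling on Actb turns the Actg1 difference into that of its ratio to Actb, given below, so it is not a separate check.

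Counted over the family, 4 of 6 genes rose at Day 9 and 4 of 6 rose at Day 14 relative to mESC, and none fell. Across all genes 41.0% were called at Day 9, 20.0% higher and 21.0% lower, and 46.9% at Day 14, 22.8% higher and 24.1% lower. Against Day 9, 2 of 6 fell at Day 14 and none rose, where 13.8% of all genes were called, 10.2% higher and 3.61% lower. On the adjusted p alone all 6 genes passed against mESC at both days, beside 83.4% of all genes at Day 9 and 85.1% at Day 14, and 5 of 6 passed between the days, beside 63.3%. Of the 10 probes, 7 were called higher at both days against mESC and none lower. Over all probes 40.4% were called at Day 9 (19.7% higher, 20.8% lower) and 46.5% at Day 14 (22.2% higher, 24.2% lower). Between the days 4 of 10 probes were called lower, beside 12.8% of all probes called, 9.46% higher and 3.37% lower. All 6 genes passed the filter on dim probes, Acta1 through the differentiated arrays. In mESC comparisons no group overlapped for any of the 6 genes, as for 78.6% of all genes at Day 9 and 83.9% at Day 14. Between the days 4 of 6 did not overlap, as for 57.4% of all genes.

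**Figure D3:**
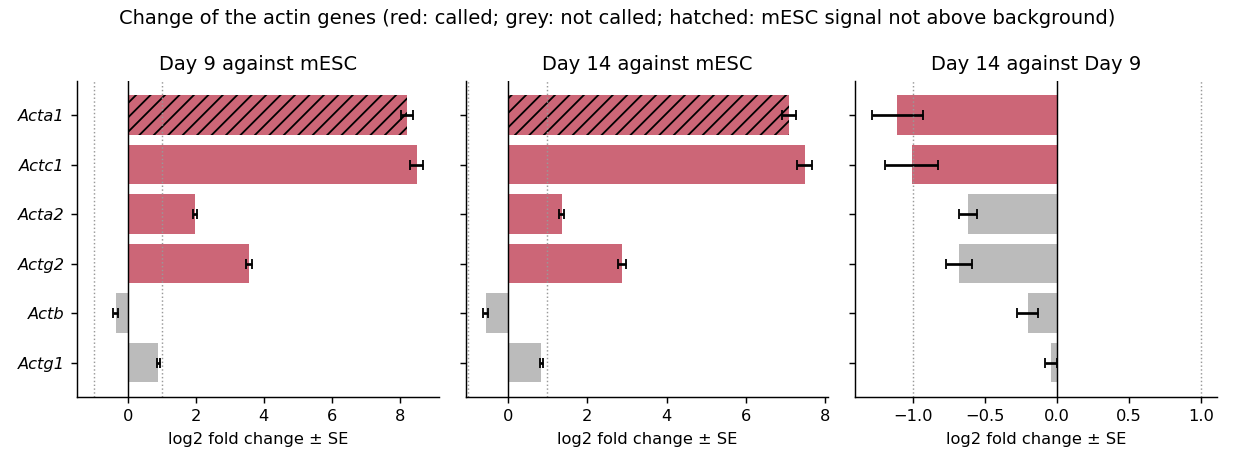
Log2 fold change ± SE (x axis, a narrower scale in the third panel) of the 6 actin genes (y axis) in the 3 comparisons, with 4 arrays per group and dotted lines at a change of 1; red bars are called, grey bars are not, and hatched bars rest on mESC signals not above background. Acta1 and Actc1 change by more than 7 against mESC on the fitted scale, and all 6 genes are below 0 between Day 14 and Day 9.

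Isoforms of the same class were then set against each other within each array, where the scaling of an array cancels. The log2 ratio of Actb to Actg1 differed by -1.25 at Day 9 relative to mESC and by -1.41 at Day 14. In each comparison all 4 differentiated arrays lay below all 4 mESC arrays, and the exact permutation test gave p = 0.0286, the smallest that 4 against 4 arrays allow (two-sided, adjusted p = 0.0643 over 9 tests). The log2 ratio of Acta2 to Actg2 on the probes that stand for the genes differed by -1.57 at Day 9 and by -1.52 at Day 14 relative to mESC (exact permutation p = 0.0286, adjusted p = 0.0643 for both). It depends on the Acta2 probe, and with A_52_P420504 the same ratio was higher by 7.45 at Day 9 and by 7.18 at Day 14. The log2 ratio of Actc1 to Acta1 was 3.89 ± 0.20 at Day 14 and 3.79 ± 0.33 at Day 9 (SD, n = 4 each), a difference of 0.10 (exact permutation p = 0.686, adjusted p = 0.686). Against mESC the Actc1 to Acta1 ratio rests on Acta1 signals that were not above background. Between Day 14 and Day 9 the ratio of Acta2 to Actg2 differed by 0.06 (exact permutation p = 0.400) and that of Actb to Actg1 by -0.16 (exact permutation p = 0.257).

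Among the muscle actins, the Day 9 arrays differed most in Actc1. Actc1 had an SD of 0.43 on the log2 scale at Day 9, larger than that of 89.5% of genes, and its highest array was 1.92 times its lowest. The SD was 0.20 for Actg2, 0.15 for Acta1 and 0.09 for Acta2, larger than that of 66.7%, 52.5% and 28.3% of genes. Relative to their mean, Actc1 was at -0.51, 0.43, 0.28 and -0.20 in Day 9 replicates 1 to 4, and the mean of the cardiomyocyte markers was at -0.79, 0.61, 0.37 and -0.20. The means of the fibroblast markers lay the other way, at 0.43, -0.35, -0.21 and 0.13. Actg2 was at -0.16, 0.24, 0.10 and -0.18, and the smooth muscle markers were at -0.19, 0.30, 0.03 and -0.13. Epithelial markers were at -0.22, 0.32, 0.03 and -0.14, and hepatic or visceral endoderm markers at -0.36, 0.39, 0.06 and -0.09. Macrophage markers lay the other way, at 0.17, -0.23, -0.05 and 0.11. The course shared with Actg2 was thus not particular to smooth muscle markers. Actg1 stayed within -0.08 and 0.05 of its mean, and 12.2% of genes had a smaller SD. These 4 points per gene share their libraries and are given with no test. At Day 14 the SD of Actc1 was 0.21, and its arrays were at -0.22, 0.09, -0.12 and 0.25 beside cardiomyocyte marker means of -0.27, 0.07, -0.11 and 0.31.

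**Figure D4:**
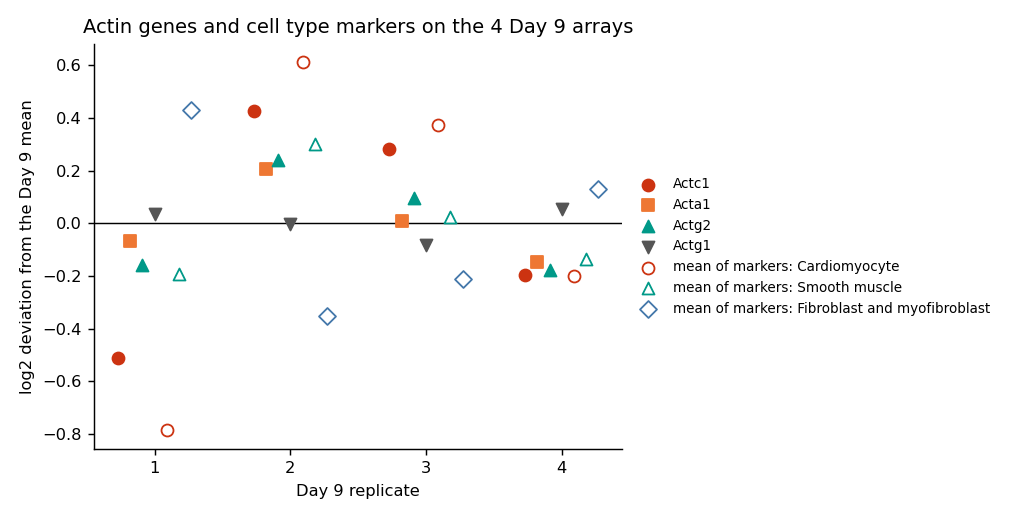
Log2 deviation from the Day 9 mean (y axis) on each of the 4 Day 9 arrays (x axis) for 4 actin genes (filled) and for the mean over 3 cell type marker lists (open). Actc1 and the cardiomyocyte markers are low on replicate 1 and high on replicate 2, the fibroblast markers are high on replicate 1 and low on replicate 2, and Actg1 stays near 0.

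The genes whose course over the 12 arrays was most like that of each actin were found by the root mean square difference of log2 values, each gene centred on its own mean, among 14987 genes with a symbol. For Actc1 these were Thbs4 (0.30), Tmod1 (0.31), which caps the pointed end of sarcomeric thin filaments, and Igfbp5 (0.36). For Acta1 they were Tcf21 (0.29), a transcription factor of fibroblast and epicardial cells, Thbs4 (0.32) and Mab21l2 (0.33). Acta1 and Actc1 lay 0.34 from each other. The distances of Acta1 include mESC signals that were not above background, as do those of Tcf21 and Tmod1, so their rank rests in part on unmeasured levels. For Actg2 they were Klhdc8b, Bambi and Frzb (0.12 each), of which Bambi and Frzb encode inhibitors of TGF-beta or BMP and of Wnt signalling. For Acta2, on the probe that stands for it, they were Cgrrf1 (0.09), Rai1 (0.10) and Zfp948 (0.11). For Actb they were Anapc7 (0.06), Abcf3 (0.06) and Mlf2 (0.07), and for Actg1 they were Magt1 (0.05), Phtf1 (0.06) and Bhlhb9 (0.06).

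In the list of SRF and its cofactors, 7 of 11 tested genes rose at Day 9 and 7 of 11 at Day 14 relative to mESC, and none fell. Of all genes 20.0% were called higher at Day 9 and 22.8% at Day 14. Myocd (myocardin, the cardiac and smooth muscle coactivator of SRF) was not above background in mESC on the probe that stands for it. That probe was at least 61.4-fold higher at Day 9 and at least 32.1-fold higher at Day 14. A second Myocd probe gave log2 changes of 4.66 at Day 9 and 4.02 at Day 14, smaller than these bounds. The size of the Myocd rise therefore depends on the probe. Fhl2, a cofactor with LIM domains, rose by 4.59 ± 0.07 at Day 9 and by 6.27 ± 0.07 at Day 14. Srf itself rose by 1.29 ± 0.06 at Day 9 and had a log2 difference of 0.80 ± 0.06 at Day 14, short of the threshold (1.02 with quantile normalization and 1.36 with scaling on Actb, both past it). The MRTF genes had smaller differences: Mrtfa 0.41 ± 0.04 at Day 9 and 0.22 ± 0.04 at Day 14, and Mrtfb 0.77 ± 0.09 and 0.34 ± 0.09. A second Mrtfb probe gave -0.07 at Day 9 and -0.15 at Day 14, so the sign of Mrtfb depends on the probe. The list's median log2 change was 2.58 at Day 9 and 2.77 at Day 14, beside -0.16 and -0.19 for all genes. At Day 14 relative to Day 9, Fhl2 rose by 1.68 ± 0.07, and Nkx2-5, a cardiac transcription factor, changed by -1.18 ± 0.30 (limma adjusted p = 0.00534), or by -0.94 without Day 9 replicate 2 and -0.98 with scaling on Actb, both short of the threshold. The list's count of fallen genes between the days, 1, was 3 without Day 9 replicate 1, 0 without Day 9 replicate 2 and 2 without Day 14 replicate 4. Of all genes 3.61% were called lower between the days.

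Targets of SRF outside the actins rose with the muscle isoforms. Of 22 genes 19 rose at Day 9 and 19 at Day 14 relative to mESC, and none fell, with medians of 2.35 and 2.95. The shares of all genes called higher were 20.0% at Day 9 and 22.8% at Day 14. The largest changes at Day 9, on the probes that stand for the genes, were in Myl9 (8.61 ± 0.10, myosin regulatory light chain), Cavin2 (8.08 ± 0.12, a caveolar coat protein), Tagln (6.34 ± 0.08) and Cnn1 (6.03 ± 0.17). A second Tagln probe gave 9.13 at Day 9 and 8.98 at Day 14, so the order of genes depends on the probe. Tagln, Cnn1, Myh11, Smtn, Lmod1, Mylk and Des are also on the list of smooth muscle markers, so these lists are not separate observations. Myocd, another of those markers, is on the list of SRF and its cofactors. At Day 14 Cavin2 and Myl9 led again (9.17 ± 0.12 and 8.99 ± 0.10), followed by Egr1 (7.06 ± 0.16, an immediate early transcription factor) and Mylk (6.68 ± 0.08, myosin light chain kinase). Between the days 5 of 22 rose and none fell: Mylk by 4.99 ± 0.08, Egr1 by 2.28 ± 0.16, Myh11 (smooth muscle myosin heavy chain) by 2.23 ± 0.17, Fos by 1.73 ± 0.11 and Cavin2 by 1.10 ± 0.12. Over all genes 10.2% were called higher between the days, where Acta2 and Actg2 did not rise. RefSeq windows were held for 18 of these 22 genes, and 4 had a full CArG box in the 250 bases before the start: Cnn2, Vcl, Fhl1 and Myl9.

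**Figure D5:**
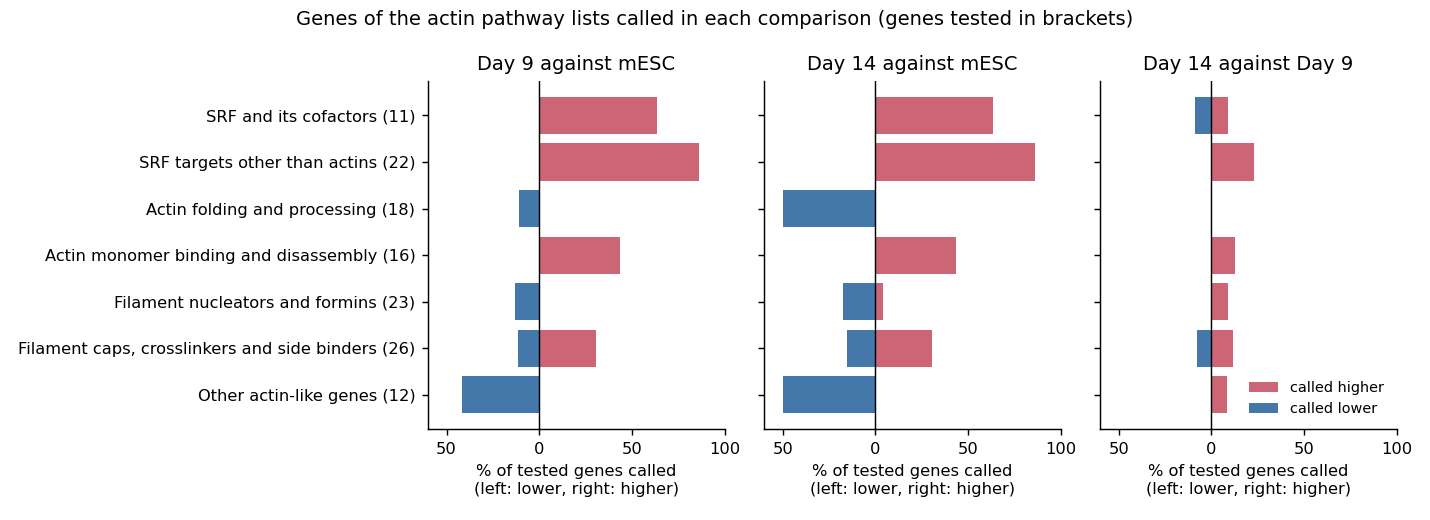
Share of the tested genes of 7 actin pathway lists (y axis, genes tested in brackets) called higher (right, red) or lower (left, blue) in the 3 comparisons, in percent (x axis), with 4 arrays per group. SRF targets rose in 19 of 22 cases at both days relative to mESC, and the folding list had 2 of 18 genes lower at Day 9 and 9 of 18 at Day 14. Over all genes 20.0% and 22.8% were called higher, and 21.0% and 24.1% lower, at Day 9 and Day 14.

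Newly made actin is folded by prefoldin and the chaperonin CCT. In the list of actin folding and processing genes 2 of 18 fell at Day 9 and 9 of 18 at Day 14 relative to mESC, and none rose. Over all genes 21.0% were called lower at Day 9, a larger share than in the list, and 24.1% at Day 14. At Day 9 these were the prefoldin subunits Pfdn1 (-1.22 ± 0.05) and Vbp1 (-1.07 ± 0.07). At Day 14 the CCT subunits Cct3 (-1.66 ± 0.06), Cct6a (-1.61 ± 0.05) and Cct8 (-1.41 ± 0.04) fell with Pfdn1 (-1.56 ± 0.05). The median log2 change was -0.56 at Day 9 and -1.02 at Day 14. The count at Day 14 was 3 with quantile normalization and 3 with arrays scaled on Actb, and at Day 9 it was 0 with either and 6 with median scaling. Setd3, which methylates a histidine of actin, and Naa80, which acetylates its amino end, did not pass the threshold of size (-0.21 ± 0.04 and 0.30 ± 0.04 at Day 9, and -0.31 ± 0.04 and 0.16 ± 0.04 at Day 14), and their signs changed with the scaling.

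Genes for proteins that bind actin monomers or take filaments apart were higher in part. Of 16 tested genes 7 rose at Day 9 and 7 at Day 14 relative to mESC, and none fell. Over all genes 20.0% were called higher and 21.0% lower at Day 9, and 22.8% and 24.1% at Day 14. Tmsb4x (thymosin beta 4, which sequesters monomers) rose by 3.51 ± 0.04 and 4.09 ± 0.04 at these days, Gsn (gelsolin, which severs and caps filaments) by 3.08 ± 0.06 and 4.69 ± 0.06, and Pfn2 (profilin 2) by 2.82 ± 0.06 and 3.53 ± 0.06. Between the days 2 of 16 rose: Coro1a (coronin 1A, an actin regulator of white blood cells) by 3.78 ± 0.11 and Gsn by 1.61 ± 0.06. That share is near the 10.2% of all genes called higher between the days. All 7 macrophage markers rose at Day 14 relative to Day 9, with a summed scaled signal of 15.1 to 18.8 at Day 14 and 0.283 to 0.372 at Day 9, where Adgre1 and C1qa were not above background. Their part in the change of Coro1a was not tested.

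Of 23 tested filament nucleators, 3 fell and none rose at Day 9 relative to mESC, and 4 fell and 1 rose at Day 14. Over all genes 41.0% and 46.9% were called. The list includes 9 genes that encode subunits of the Arp2/3 complex, with none called against mESC. Cobl, a nucleator first described in neurons, fell by 5.66 ± 0.06 on the log2 scale at Day 9 and by 3.32 ± 0.06 at Day 14. Was, the WASP gene of blood cells, changed by -3.21 ± 0.12 at Day 9 and -2.04 ± 0.12 at Day 14, and the formin Diaph2 by -1.27 ± 0.05 and -1.40 ± 0.05. The formin Fhod1 was the gene that rose at Day 14 (1.30 ± 0.08). The count of risen genes is near the threshold: without mESC replicate 3 it was 1 at Day 9 and 2 at Day 14, without Day 9 replicate 1 it was 2 at Day 9, and without Day 9 replicate 2 or 3 it was 1 at Day 9. With scaling on Actb it was 5 at Day 9 and 5 at Day 14. Between the days Cobl and Was rose, by 2.34 ± 0.06 and 1.16 ± 0.12, and with normexp Was missed the threshold at 0.87.

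Of 26 tested genes of filament caps, crosslinkers and side binders, 8 rose and 3 fell at Day 9 relative to mESC, and 8 rose and 4 fell at Day 14. These counts are near the shares over all genes, 41.0% and 46.9% called. The medians were -0.09 and -0.16. Those with the largest rises are muscle genes. Tmod1 was at least 99.1-fold higher at Day 9 and at least 38.1-fold higher at Day 14. Actn2, the alpha-actinin of the Z disc, rose by 4.64 ± 0.32 at Day 9 and by 4.19 ± 0.32 at Day 14, and Flnc, the muscle filamin, by 4.50 ± 0.05 and 4.80 ± 0.05. The 2 other Flnc probes gave 1.06 and 4.58 at Day 9, and from 1.35 to 4.88 at Day 14, so the size depends on the probe. Xirp2, a muscle actin-binding protein, was at least 7.67-fold lower at Day 9, where it was not above background, and lost that call with normexp (log2 change -0.83, limma adjusted p = 0.0827). Actn3, the alpha-actinin of fast skeletal fibres, changed by -3.44 ± 0.11 at Day 14. Between the days 3 of 26 rose and 2 fell, beside 10.2% of all genes called higher and 3.61% lower. Lcp1 (L-plastin, a bundler of white blood cells) rose by 2.08 ± 0.09 beside the macrophage markers above, whose part was not tested, and Xirp2 was at least 2.90-fold higher, a call also lost with normexp (0.71, limma adjusted p = 0.185). Tmod1 changed by -1.38 ± 0.23 (limma adjusted p = 0.00036) and Nebl (nebulette) by -1.51 ± 0.27 (limma adjusted p = 0.000562). With normexp the Nebl value was -0.07 (limma adjusted p = 0.888), so its call was lost.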

How the data were processed

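Total RNA of 12 samples (3 groups of 4, grouped by their titles) was labelled with Cy3 per the labels' protocols. Per the file headers each array was read with Agilent Feature Extraction 12, as the submitters' processing notes also state. The deposited processed signal is an intensity, background-subtracted and not scaled between arrays, and the deposited value table held the same intensities with 0 differences. The deposited median signal and local background are uncorrected intensities, per the file headers, and the other deposited columns used are flags of 0 or 1 (background, saturation, outlier).

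Control spots and outlier spots were left out. No spot was saturated. Spots of a probe were averaged on the log2 scale, and the 75th percentile of each array was subtracted. Probes were named through accessions in RefSeq GRCm38.p6 (28223 named, 12951 not). The array annotation refers to an older build, so no gene positions are given, and promoter coordinates are those of the RefSeq windows. A probe was tested if well above background on at least 3 of 4 arrays of at least 1 group (28385 probes), and each gene was represented by its brightest tested probe on average (20875 genes, 15558 with a symbol). An unnamed accession counted as a gene.

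All 12 arrays entered a group-means model in limma 3.58.1 (R 4.3.3), two-sided, with Benjamini-Hochberg adjustment over all genes (or all probes). The groups share each gene's moderated variance. Calls needed an adjusted p under 0.05 and a log2 change of 1 or more in size. The fit was first tested on simulated data. Isoform ratios were tested by exact permutation, adjusted over 9 tests.

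Named genes were the 6 actins, the 3 genes most like each, and from every list the 4 most changed called members at most, with 6 regulators; the text gives a part of them, and list members named beyond these (Cavin2 between the days, the CArG box holders and the marker genes) were chosen after their values were seen. The members and lists were chosen with earlier results of these data known. Sdpr was matched to Cavin2. Elk1 and Actmap were not analysed here.

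The alternatives tried were normexp (offset 50), run on the median signal since the mean signal was not used here, quantile normalization, scaling on the median or on Actb, the value table, other probe filters, the mean over probes, other probes, a fit of just the 8 arrays of a comparison, a robust prior with intensity trend, a replicate block and each array left out. Slide or scan could not enter as a block.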

Additional observations from a re-analysis of the deposited data

Results flagged for a closer look

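On the Actb probe, Day 14 replicate 3 lay apart from the other arrays of its group, at -0.67 on the log2 scale with its nearest neighbour at -0.58. The gap was 0.832 of the group's range, just above Dixon's critical value for 4 arrays. Chance alone would mark about 1 in 20 groups in this way.

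For Acta1 the change against mESC differed between the days: it was smaller at Day 14 than at Day 9 (log2 difference -1.11 ± 0.18, limma adjusted p = 0.000233), with all 4 Day 14 arrays below all 4 Day 9 arrays. For Actc1 the same difference was -1.01 ± 0.18 (limma adjusted p = 0.000573), again with no overlap between the days. Both are the contrasts of Day 14 with Day 9 given in the report.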

How the results depend on the processing

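Of 420 recomputed values of the actin genes and probes, 405 kept their direction and side of the threshold, as did 63 of 69 counts over all genes and 73 of 90 isoform differences. The counts at Day 9 and Day 14 against mESC and Day 14 against Day 9 were 8565, 9783 and 2880. They were 4760, 5851 and 1231 with normexp, and 5483, 6430 and 1305 with only probes above background on all 12 arrays (15894 genes tested). With arrays scaled on Actb the split was 5410 higher and 3090 lower, 6668 and 2833, and 2579 and 477, against 4179 and 4386, 4750 and 5033, and 2126 and 754. With median scaling it was 3987 and 6986 at Day 14 against mESC and 1745 and 1220 between the days. The median log2 change of all genes was -0.29, -0.51 and -0.28 with median scaling and 0.19, 0.37 and 0.11 with scaling on Actb, so a change there is relative to that shift; with normexp it was -0.15, 0.10 and 0.16.

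Actg1 against mESC passed the threshold with quantile normalization (1.30 at Day 9, 1.36 at Day 14) and with scaling on Actb (1.25 and 1.41), and between the days its sign turned in both (0.0655 and 0.16). The values scaled on Actb repeat the ratio of Actg1 to Actb. Actc1 between the days missed the threshold with quantile normalization (-0.91) and scaling on Actb (-0.81), and over arrays left out in turn it ran from -1.18 to -0.87. Acta1 between the days was -0.91 with scaling on Actb. Acta2 between the days passed on probes A_52_P210078 (-1.24) and A_52_P239556 (-1.07), and with the mean over its probes Acta2 changed by 6.52 at Day 9 and 5.55 at Day 14 against mESC. With normexp 6 isoform differences against mESC reached an adjusted p of 0.0429 by exact permutation: 3.03 and 2.97 for Actc1 over Acta1, -1.41 and -1.38 for Acta2 over Actg2, and -1.21 and -1.13 for Actb over Actg1, at Day 9 and Day 14. Between the days the first and the last turned sign with normexp (-0.0646 and 0.0763). With other Acta2 probes, a choice made after seeing the data, Acta2 over Actg2 was 7.45, 6.34 and -0.39 at Day 9, and 7.18, 5.78 and -0.78 at Day 14 against mESC, and -0.27, -0.56 and -0.39 between the days, for A_52_P420504, A_52_P210078 and A_52_P239556.

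Of list genes, these turned sign: Actl7b (0.0363) and Actrt2 (0.0877) at Day 14 with normexp, Setd3 with quantile normalization (0.0152 and 0.0248) and scaling on Actb (0.15 and 0.25), and Mrtfa (-0.10) and Naa80 (-0.16) at Day 14 with median scaling, all against mESC. Normexp also shrank large changes against mESC of genes dim in mESC: at Day 9 and Day 14 to 4.25 and 3.15 for Acta1, 2.96 and 2.27 for Myocd, 3.85 and 2.59 for Tmod1, and 5.68 and 6.62 for Cavin2. Deviations of arrays with the same replicate number correlated from -0.08 to 0.18, and those of arrays with other numbers from -0.21 to 0.15. Such correlations cannot show whether replicate numbers mark shared cultures, which the labels do not state. With the replicate block the counts were 8564, 9783 and 2876. A block for slide or scan was not run, since each holds 1 group. The causes of these shifts were not tested. Signal near background limits Acta1 and the dim Acta2 probes in mESC.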

Other observations

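Other genes of the actin superfamily, which encode actin-related proteins of chromatin, dynactin and sperm, were lower in part relative to mESC. Of 12 tested 5 fell and none rose at Day 9 relative to mESC, and 6 fell and none rose at Day 14, with medians of -0.73 and -0.96. Over all genes 21.0% were called lower at Day 9 and 24.1% at Day 14. The median at Day 9 was -0.65 with the 3 genes below background at their bound. Actl6a, a subunit of chromatin remodelling complexes, fell by 2.00 ± 0.06 on the log2 scale at Day 14, and Actr3b, a paralogue of an Arp2/3 subunit, fell by 2.20 ± 0.12 at Day 9 and by 1.57 ± 0.12 at Day 14. Actl7b and Actrt2, known from the testis, lost their calls with normexp. So did Actl6b at Day 9 and Actr3b at Day 14 (-0.58, limma adjusted p = 0.157), and the counts of fallen genes were then 2 at Day 9 and 3 at Day 14.

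Outside the family, 189 tested genes had a full CArG box in the 250 bases before an annotated start. Of these 29.6% were called higher and 18.5% lower at Day 9 relative to mESC, beside 19.4% and 21.6% of the 12330 tested genes with a window. At Day 14 relative to mESC 32.8% were called higher, beside 23.5%. Between Day 14 and Day 9 9.52% were called higher, beside 11.03%. These shares are descriptions, with no test.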
